A study of Mus musculus with 12 samples.

Results

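Hif1a, Meox2, Creb1, Pcm1, Rock2, Snap23 and Mef2a are 7 of the genes that the study names as predicted targets of miR-6240, and they were followed here through the deposited count table of non-coding transcripts. A row of that table is 1 transcript, and every row whose Ensembl identifier belongs to 1 of the 7 genes in GENCODE vM21 was kept. This gave 15 of 48033 rows and 6 of the 7 genes. Creb1 and Mef2a had 4 rows each, Snap23 had 3, Hif1a had 2, and Pcm1 and Rock2 had 1 each. No row belonged to Meox2, whose 1 annotated transcript is coding, so its level is not analysed here. Of the 15 rows, 12 are retained-intron transcripts and 3 are processed transcripts, and the coding mRNAs of the genes are not analysed here.

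The 12 libraries came from mice aged 7 months on the C57BL/6J background. The groups were WT hippocampus, 5 × FAD hippocampus, WT cerebral cortex and 5 × FAD cerebral cortex, with 3 libraries each. Both regions were taken from each mouse, so the 12 libraries come from 6 mice. WT mice were non-transgenic. The 5 × FAD mice carry transgenes for human APP with the Swedish, Florida and London mutations of familial Alzheimer's disease and for human PS1 with a pair of such mutations, driven by elements of the neuronal Thy1 gene, so the model adds mutant protein made mainly in neurons and not the disease as a whole. Ribosomal RNA was removed before stranded, paired-end sequencing, and the library totals were 3517967 to 5014389 counts.

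A miRNA is a short RNA that guides a silencing complex to mRNAs, mostly through pairing of its seed, bases 2 to 8 from its 5′ end, with sites in the 3′UTR. A bound mRNA is translated less or broken down sooner. Prediction programs look for such seed matches, so that the 7 genes hold them is how they were chosen and no finding. A retained-intron transcript keeps an intron that the coding transcripts splice out. Many of these RNAs stay in the nucleus, and a row of this kind can lack the 3′UTR altogether. The level of such a row says how much of that RNA was counted and does not give the level of the mRNA or the protein.

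The sequence of miR-6240 and of 1 seed match of each gene are shown because the choice of the genes rests on them. In RefSeq (GRCm38.p6) mature miR-6240 is 26 bases long and lies on the + strand at chr5:114851973-114851998. Capitals mark the seed, which 2 of 1738 mature mouse miRNAs in the RefSeq table carry, miR-6240 included.
miR-6240: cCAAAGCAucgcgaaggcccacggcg

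Each coding gene's longest annotated 3′UTR was searched on the transcript strand for TGCTTTGA (an 8mer site), TGCTTTG not followed by A (7mer-m8) and GCTTTGA not preceded by T (7mer-A1), so that no site was counted under more than 1 motif. The 7 genes held 18 sites, of which 4 were 8mers, 10 were 7mer-m8 and 4 were 7mer-A1. Of 21020 genes with a 3′UTR, 24.2% held at least 1 site and 5.46% held an 8mer. Capitals mark the match in the windows below, which are written 5′ to 3′ along the transcript with GRCm38 positions.
Hif1a 7mer-m8 (chr12:73946159-73946188, + strand): catgaaaataaTGCTTTGtcagcagtacat
Meox2 8mer (chr12:37178729-37178758, + strand): aaaataaaaaaTGCTTTGAacattccagtt
Creb1 7mer-m8 (chr1:64598821-64598850, + strand): tgtcttatattTGCTTTGggatattaagaa
Pcm1 8mer (chr8:41332070-41332099, + strand): aaataaacattTGCTTTGAtctgtataaaa
Rock2 8mer (chr12:16985664-16985693, + strand): aatatttccttTGCTTTGAactttctggtt
Snap23 8mer (chr2:120600181-120600210, + strand): gaaaaatagatTGCTTTGAgttttgtgtag
Mef2a 7mer-m8 (chr7:67234420-67234449, - strand): agaaaacaaaaTGCTTTGtagaacagagca

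A longer 3′UTR gives more room for a chance match, so each gene is set beside genes of like length. Creb1, with a 3′UTR of 7170 bases, held 5 sites, and 77.2% of 395 genes with a 3′UTR within 20% of that length held at least 1. Mef2a held 4 sites in 3705 bases, where 55.9% of genes of like length had one, and Rock2 held 3 in 3182 bases, where 50.6% did. Hif1a held 2 in 1827 bases (32.0%), Meox2 held 2 in 1157 bases (24.3%) and Snap23 held 1 in 1914 bases (33.2%). Pcm1 has the shortest 3′UTR of the 7, at 336 bases, and 6.90% of genes of like length held a site.

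The counted rows lie almost wholly outside these sites. Of the 18 sites in 3′UTRs, 1 lies in a row of the table, the Mef2a site shown above in the retained-intron row ENSMUST00000207794. That row holds a further 7mer-m8 in a coding exon, Creb1 row ENSMUST00000187035 holds a 7mer-A1 in an intron of the coding transcripts, and Rock2 row ENSMUST00000220542 holds a pair of 8mers in such an intron. The other 12 rows hold no match of these letters. Among table rows within 20% of the same length, 42.6% held a site for the Mef2a row, 26.3% for the Creb1 row and 57.0% for the Rock2 row, with 13.0% holding an 8mer in the last case. The Rock2 pair is shown because it is the only 8mer match inside a counted row.
Rock2 row, first 8mer (chr12:16943239-16943268, + strand): aaaatgaatttTGCTTTGAcaatggcataa
Rock2 row, second 8mer (chr12:16945909-16945938, + strand): agctctaaagtTGCTTTGAtttgtcatata

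**Figure D1:**
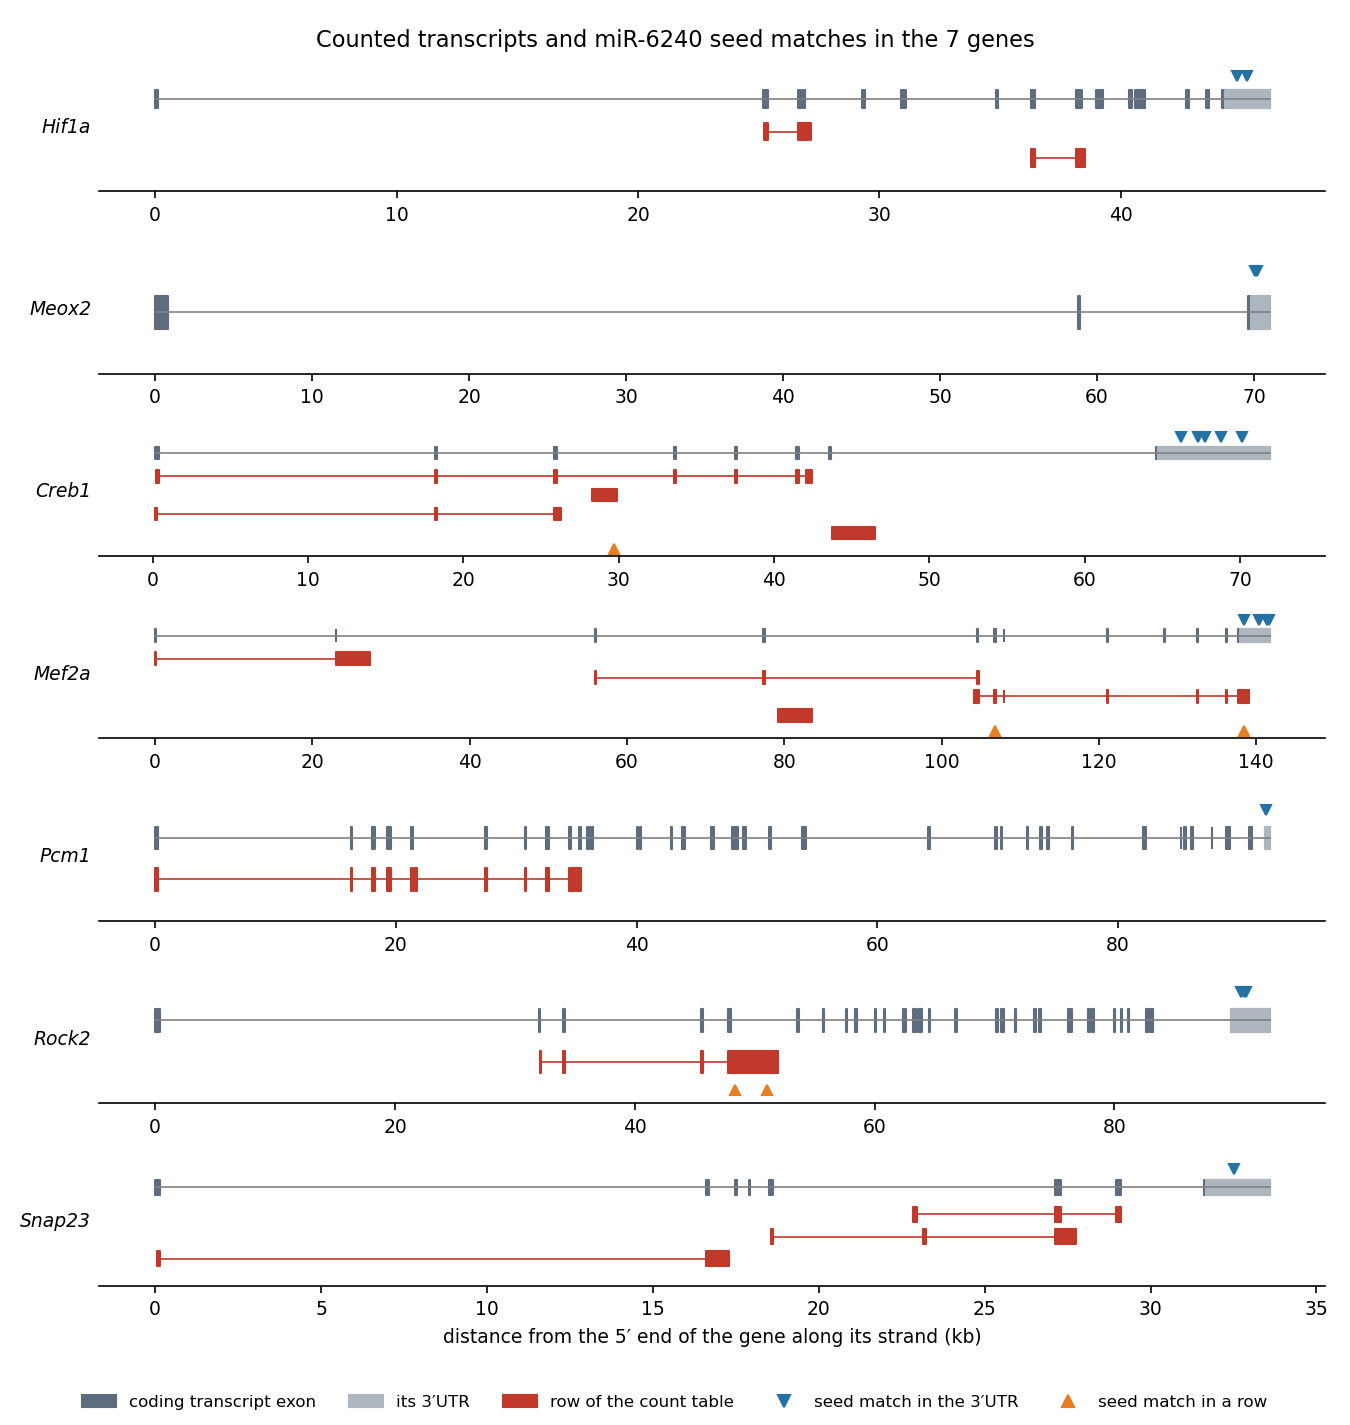
Each panel is 1 gene drawn 5′ to 3′, with distance from the gene's 5′ end in kb on the x axis. Grey boxes are exons of the coding transcript with the longest 3′UTR (light grey), red boxes are the rows of the count table, blue triangles are the 18 seed matches in 3′UTRs and orange triangles the 5 matches inside rows; the rows of Hif1a, Creb1, Pcm1, Rock2 and Snap23 end before the 3′UTR sites, and Meox2 has no row.

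The table holds no row for the miR-6240 hairpin (Mir6240, chr5:114851948-114852064), so the miRNA itself is not analysed here. Its full mature sequence occurs in 1 annotated transcript, the hairpin. Strn3, whose gene gives rise to circRNA00747, the circular RNA that the study pairs with miR-6240, has 1 linear non-coding row (ENSMUST00000218212). That row had 533, 670 and 471 counts in WT hippocampus against 505, 718 and 373 in 5 × FAD hippocampus, and the circular form cannot be read from it. In the cortex it had 436, 480 and 367 counts in WT against 466, 441 and 528 in 5 × FAD, so the genotypes overlapped in both regions.

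The libraries were first compared with their labels. In a marker list for hippocampus, 3 of 6 genes had a row, and their summed level was 107 to 127 CPM (counts relative to library size, with TMM factors) in hippocampus and 25.7 to 49.0 CPM in cortex. For the cortex list (4 of 6 genes) the ranges were 48.2 to 71.4 CPM in hippocampus and 75.9 to 137 CPM in cortex. The stated make-up of each genotype is a pair of females and 1 male. In both regions, Y-linked transcripts were above 3 counts in all WT libraries and in 5 × FAD 3, at 1074 to 1661 counts. They had 0 counts in both regions of 5 × FAD 1 and 2. Xist, made from the inactive X chromosome of females, had 4 to 25 counts in the former libraries and 30468 to 46630 in the latter. No WT library thus looked female, which departs from the stated make-up. In 5 × FAD 1 and 2, sex cannot be told apart from genotype. Aif1, Trem2 and Cd68, the 3 of 9 microglia markers with a row, summed to 24.6 to 35.4 CPM in WT hippocampus and to 181, 197 and 46.5 CPM in 5 × FAD hippocampus 1, 2 and 3. In the cortex they summed to 38.8 to 65.0 CPM in WT and to 245, 212 and 34.0 CPM in 5 × FAD 1, 2 and 3. The library labelled 5 × FAD 3 thus stood apart from the other two of its group in both regions, and none of the 3 microglia markers with a row was at 0 in all libraries. Astrocyte markers (4 of 5 genes) summed to 544, 449 and 1082 CPM in 5 × FAD hippocampus 1, 2 and 3 against 1345 to 1476 CPM in WT. Their cortex sums overlapped, at 1444, 1263 and 884 CPM in 5 × FAD 1, 2 and 3 against 877 to 1497 CPM in WT. The part of these differences in the results below was not tested, and genotype differences of gene sums and named rows are also given without 5 × FAD 3 and in a fit with a term for Y-linked transcripts. In that fit the genotype difference is carried by 5 × FAD 3 alone against WT. In these tissue samples, fewer cells of a type and less RNA per cell cannot be told apart.

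The 15 rows spanned a wide range of levels. Mef2a row ENSMUST00000208823, a single retained stretch of 4259 bases with no base in a coding exon, had the highest level per length, with a mean of 33.3 CPM per kb (27.6 to 44.4 over the 12 libraries). Next came the Pcm1 row (19.7 CPM per kb), the Rock2 row (18.6), Snap23 row ENSMUST00000147864 (16.4) and Hif1a row ENSMUST00000157041 (16.3), and the ranges of these 4 overlapped. The lowest was Creb1 row ENSMUST00000186335 at 0.971 CPM per kb, which was at 0 counts in 2 libraries. In terms of the whole table, mean CPM was higher than in 97.3% of rows for the first Mef2a row and than in 43.9% of rows for the last Creb1 row. Summed per gene with each row divided by its own length, Mef2a led with 53.3 CPM per kb (41.0 to 67.0), above the highest library of any other gene. Snap23 (26.4 CPM per kb), Hif1a (25.3), Creb1 (22.8), Pcm1 (19.7) and Rock2 (18.6) followed with overlapping ranges.

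Comparing 5 × FAD with WT in the hippocampus asks whether non-coding transcripts of the predicted targets differ in the region where the study examined miR-6240. None of the 6 gene sums passed edgeR's quasi-likelihood test after Benjamini-Hochberg adjustment at 0.05, where 0.0529% of 11345 sums did. None had an unadjusted p under 0.05 either (8.68% of all sums), and none passed with DESeq2. The 6 log2 fold changes lay between -0.37 and 0.63, with a median of 0.12 against 0.03 over all sums. The groups did not overlap for 2 of the 6 genes, Snap23 and Hif1a, with 5 × FAD higher for the first and lower for the second, where this held for 16.4% of all sums (8.17% higher and 8.19% lower).

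**Figure D2:**
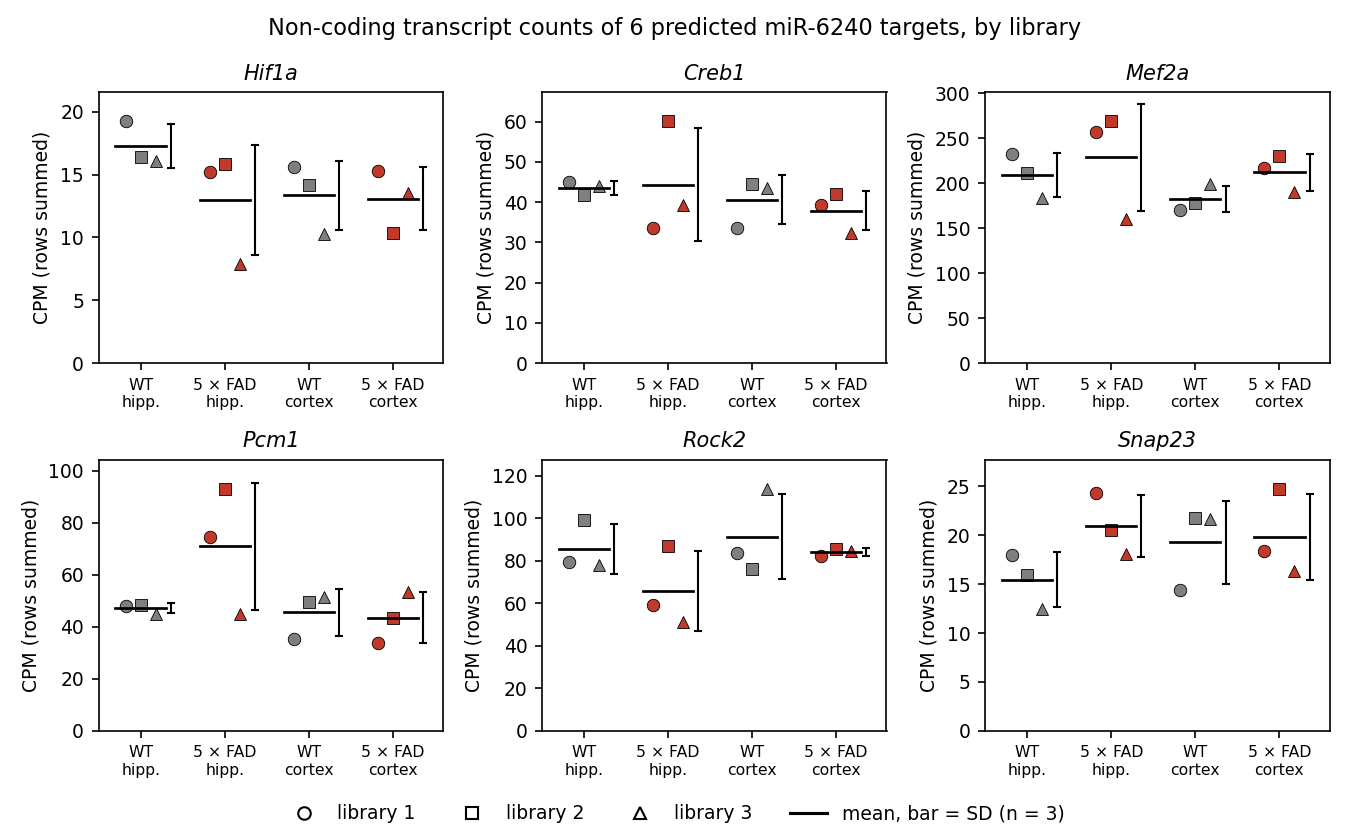
Each panel shows 1 gene, with the summed CPM of its rows on the y axis (from 0) and the 4 groups on the x axis; circles, squares and triangles are libraries 1, 2 and 3, lines are means and bars are SD (n = 3). The groups overlap except in the hippocampus for Hif1a and Snap23, both by a small margin. The 5 × FAD hippocampus triangle is the lowest of the 6 hippocampus points for Hif1a, Mef2a, Pcm1 and Rock2, for Pcm1 by a small margin.

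Hif1a (ENSMUSG00000021109, chr12:73901375-73947530, + strand) encodes the oxygen-regulated subunit of HIF-1, the transcription factor that turns on glycolytic and angiogenic genes when oxygen is short. Its 2 rows summed to 89, 76 and 70 counts in WT hippocampus 1, 2 and 3 and to 61, 68 and 32 counts in 5 × FAD hippocampus 1, 2 and 3. All 3 libraries of 5 × FAD were below all 3 of WT, with 5 × FAD 3 the lowest. The margin was small, since 5 × FAD 2 was at 15.85 CPM and WT 3 at 16.09 CPM. The log2 fold change was -0.37 (standard error 0.31, 95% interval -1.09 to 0.36, adjusted p = 0.730 with edgeR's quasi-likelihood test and Benjamini-Hochberg adjustment). Without 5 × FAD 3 it was -0.12, and with the term for Y-linked transcripts it was -1.08 (unadjusted p = 0.0131, adjusted p = 0.392 with the same edgeR test).

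The sum joins a pair of rows with fold changes of opposite sign. Hif1a row ENSMUST00000157041 is a processed transcript at chr12:73937670-73939881 whose 484 bases are 72.7% coding sequence. It had 44, 61 and 46 counts in WT hippocampus against 16, 24 and 24 in 5 × FAD hippocampus, and every 5 × FAD library, the third included, was below every WT library. Its log2 fold change was -1.08 (standard error 0.29, 95% interval -1.77 to -0.40, unadjusted p = 0.00764), which ranked 287 of 21894 rows and did not pass adjustment in edgeR's quasi-likelihood test (Benjamini-Hochberg adjusted p = 0.583). The value was -1.19 without 5 × FAD 3 and -0.89 with the term for Y-linked transcripts. This row shares 352 bases with the coding sequence of Hif1a itself. It also shares 131 exonic bases with Gm49321, a coding gene annotated on the same strand that has no row. Reads of the shared bases cannot be told apart.

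The other Hif1a row, the retained-intron transcript ENSMUST00000149740 at chr12:73926602-73928532, behaved differently across libraries. It had 45, 15 and 24 counts in WT hippocampus against 45, 44 and 8 in 5 × FAD hippocampus, with 5 × FAD 3 the lowest of the 6 libraries. Its log2 fold change was 0.36 (standard error 0.68), 0.81 without 5 × FAD 3 and -1.62 with the term for Y-linked transcripts. The share of Hif1a counts on row ENSMUST00000157041 was therefore 49.4%, 80.3% and 65.7% in WT 1, 2 and 3 and 26.2%, 35.3% and 75% in 5 × FAD 1, 2 and 3, and the groups overlapped. Row ENSMUST00000149740 overlaps the antisense transcript Gm15283 over 146 bases, and the row of that transcript had 0 to 8 counts in a library.

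Creb1 (ENSMUSG00000025958, chr1:64532645-64604548, + strand) encodes CREB, a transcription factor switched on by cAMP and calcium signals that is needed for lasting memory. Its 4 rows summed to 208, 193 and 191 counts in WT hippocampus and to 135, 258 and 159 in 5 × FAD hippocampus. The 5 × FAD libraries lay on both sides of the narrow WT range, with a mean of 44.3 ± 13.97 CPM (SD, n = 3) against 43.5 ± 1.68 CPM in WT. Its log2 fold change was 0.07 (standard error 0.24, 95% interval -0.50 to 0.63). It was 0.14 without 5 × FAD 3, -0.11 with the term for Y-linked transcripts, and -0.21 without 5 × FAD 2, the library with the highest value.

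Within Creb1, the row with most counts was the retained intron ENSMUST00000190979 (chr1:64576388-64579150), 92.9% of which lies in no coding exon. It had 124, 111 and 118 counts in WT hippocampus against 65, 106 and 101 in 5 × FAD hippocampus. Its log2 fold change was -0.23 (standard error 0.24, 95% interval -0.80 to 0.34), -0.33 without 5 × FAD 3, -0.05 without 5 × FAD 1 and -0.05 with the term for Y-linked transcripts. Row ENSMUST00000187035, which was picked out after its values were seen and holds the intronic 7mer-A1, had 56, 60 and 44 counts in WT against 48, 121 and 47 in 5 × FAD, and it held 46.9% of all Creb1 counts of 5 × FAD 2. Row ENSMUST00000188855, likewise picked out afterwards, had 24, 22 and 23 counts in WT against 13, 15 and 4 in 5 × FAD. Its groups did not overlap, yet the log2 fold change of -0.95 (standard error 0.47) had an adjusted p of 0.684 in edgeR's quasi-likelihood test after Benjamini-Hochberg adjustment. It was -0.57 without 5 × FAD 3, the library with 4 counts, and -2.32 with the term for Y-linked transcripts (unadjusted p = 0.00373, adjusted p = 0.290 with the same edgeR test).

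Mef2a (ENSMUSG00000030557, chr7:67231163-67372858, - strand) encodes a MADS-box transcription factor of neurons and muscle that acts on activity-dependent genes and limits synapse number. Its 4 rows summed to 1077, 978 and 800 counts in WT hippocampus and to 1033, 1154 and 648 in 5 × FAD hippocampus. The highest and the lowest level in CPM were both in 5 × FAD, libraries 2 and 3. The log2 fold change was 0.17 (standard error 0.23, 95% interval -0.37 to 0.71). It was 0.37 without 5 × FAD 3 and -0.34 with the term for Y-linked transcripts. The intronic row ENSMUST00000208823 (chr7:67289391-67293649) held 62.3% to 73.8% of Mef2a counts in all 12 libraries and had a log2 fold change of 0.13 (standard error 0.23) in hippocampus, 0.30 without 5 × FAD 3 and -0.29 with the term for Y-linked transcripts.

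Pcm1 (ENSMUSG00000031592, chr8:41239752-41332344, + strand) encodes a scaffold of centriolar satellites, the granules that deliver proteins to centrosomes and cilia. Its 1 row, the retained-intron transcript ENSMUST00000211090 at chr8:41239752-41275094, covers the first part of the gene with 10 exons and is 64.8% coding sequence. Reads of these coding bases cannot be told apart from those of the coding mRNA. It had 222, 225 and 196 counts in WT hippocampus against 300, 400 and 182 in 5 × FAD hippocampus. Levels of 5 × FAD 1 and 2 were 1.58 and 1.97 times the WT mean, and that of 5 × FAD 3 was 0.953 times it. The log2 fold change, 0.63 (standard error 0.27, 95% interval -0.003 to 1.26), was the highest of the 6 genes, with an unadjusted p of 0.0508 and an adjusted p of 0.571 in edgeR's quasi-likelihood test after Benjamini-Hochberg adjustment. Without 5 × FAD 3 it was 0.87 (standard error 0.16, unadjusted p = 0.00192, adjusted p = 0.186 with the same edgeR test), and with the term for Y-linked transcripts it was -0.03. The value thus rested on 5 × FAD 1 and 2, the libraries without Y-linked transcripts and with the higher microglia marker sums.

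Rock2 (ENSMUSG00000020580, chr12:16894895-16987823, + strand) encodes a kinase activated by RhoA that acts on the actin cytoskeleton and on dendritic spines. Its 1 row, the retained-intron transcript ENSMUST00000220542 at chr12:16927005-16946818, is the one with both intronic 8mers and has 88.2% of its 4380 bases in no coding exon. It had 367, 459 and 339 counts in WT hippocampus against 238, 374 and 207 in 5 × FAD hippocampus. In CPM, 5 × FAD 1 and 3 were below all WT libraries and 5 × FAD 2 was within their range. Its log2 fold change was -0.34 (standard error 0.23, 95% interval -0.89 to 0.22), -0.19 without 5 × FAD 3 and -0.70 with the term for Y-linked transcripts. Without 5 × FAD 2 it was -0.58 (unadjusted p = 0.0241, adjusted p = 0.411 in edgeR's quasi-likelihood test).

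Snap23 (ENSMUSG00000027287, chr2:120567671-120601255, + strand) encodes a SNARE protein of vesicle fusion that resembles the neuronal SNAP25 and is found in most cell types. Its 3 rows summed to 83, 74 and 54 counts in WT hippocampus and to 98, 88 and 73 in 5 × FAD hippocampus. In CPM the groups did not overlap, but only just, since 5 × FAD 3 was at 18.04 and WT 1 at 17.95. The log2 fold change was 0.48 (standard error 0.24, 95% interval -0.09 to 1.06, adjusted p = 0.609 with edgeR's quasi-likelihood test and Benjamini-Hochberg adjustment). It was 0.58 without 5 × FAD 3 and 0.27 with the term for Y-linked transcripts.

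Row ENSMUST00000147864, a retained intron at the 5′ end of Snap23 (chr2:120567723-120584975), had most of its counts. It had 54, 59 and 39 counts in WT hippocampus against 53, 56 and 67 in 5 × FAD hippocampus, which gave a log2 fold change of 0.37 (standard error 0.25) with groups that did not overlap in CPM. Without 5 × FAD 3 the value was 0.25, and with the term for Y-linked transcripts it was 0.58. In the cortex it had 47, 69 and 57 counts in WT against 56, 47 and 52 in 5 × FAD, with a log2 fold change of -0.19 (standard error 0.22), -0.16 without 5 × FAD 3 and -0.24 with the term for Y-linked transcripts. All 3 libraries of 5 × FAD were thus above the WT mean in hippocampus and below it in cortex, but the test of the difference between regions gave 0.55 (standard error 0.30, adjusted p = 0.771 with edgeR's quasi-likelihood test and Benjamini-Hochberg adjustment). The processed transcript ENSMUST00000130759 was seen in some libraries and not in others. It had 0, 1 and 0 counts in WT hippocampus against 19, 0 and 0 in 5 × FAD hippocampus, and 0, 14 and 11 in WT cortex and 16, 20 and 10 in 5 × FAD cortex. At these depths 3 counts correspond to 0.598 to 0.853 CPM without TMM factors, so a row at 0 may still be present below that level.

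**Figure D3:**
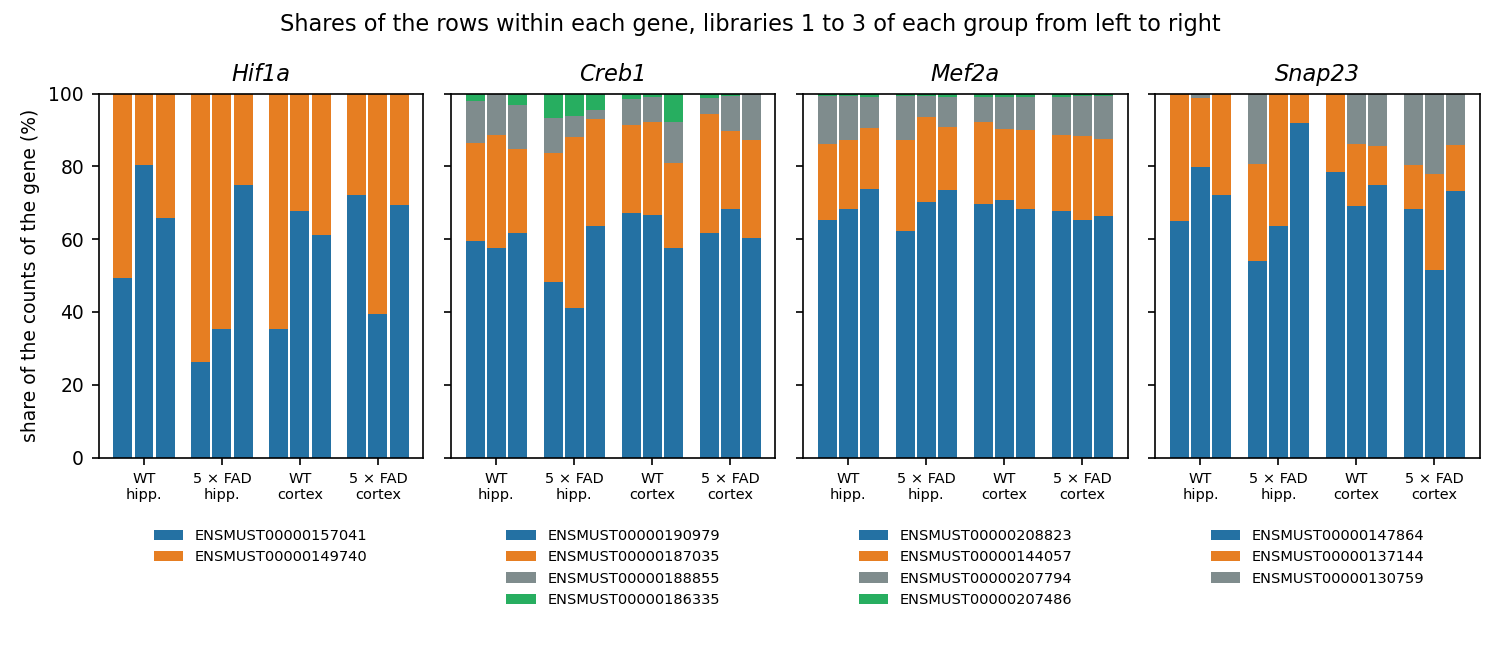
Stacked bars give the share of a gene's counts (y axis, %) on each of its rows for the 4 genes with more than 1 row, with libraries 1 to 3 of each group from left to right. Mef2a shares vary little, row ENSMUST00000157041 of Hif1a ranges from 26.2% to 80.3%, and row ENSMUST00000130759 of Snap23 from 0% to 21.98%.

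At the level of rows, 12 of the 15 passed the filter on low counts in hippocampus. The others were Creb1 ENSMUST00000186335, Mef2a ENSMUST00000207486 and Snap23 ENSMUST00000130759. None of the 12 passed edgeR's quasi-likelihood test after Benjamini-Hochberg adjustment, where 0.0183% of 21894 rows did, and none passed with DESeq2. One had an unadjusted p under 0.05, the Hif1a row described above, where 7.58% of all rows did. Groups did not overlap for 3 of the 12, 1 higher and 2 lower in 5 × FAD, against 15.6% of all rows (7.59% higher and 8% lower). The median log2 fold change was 0.21 over the 12 and 0.02 over all rows.

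**Figure D4:**
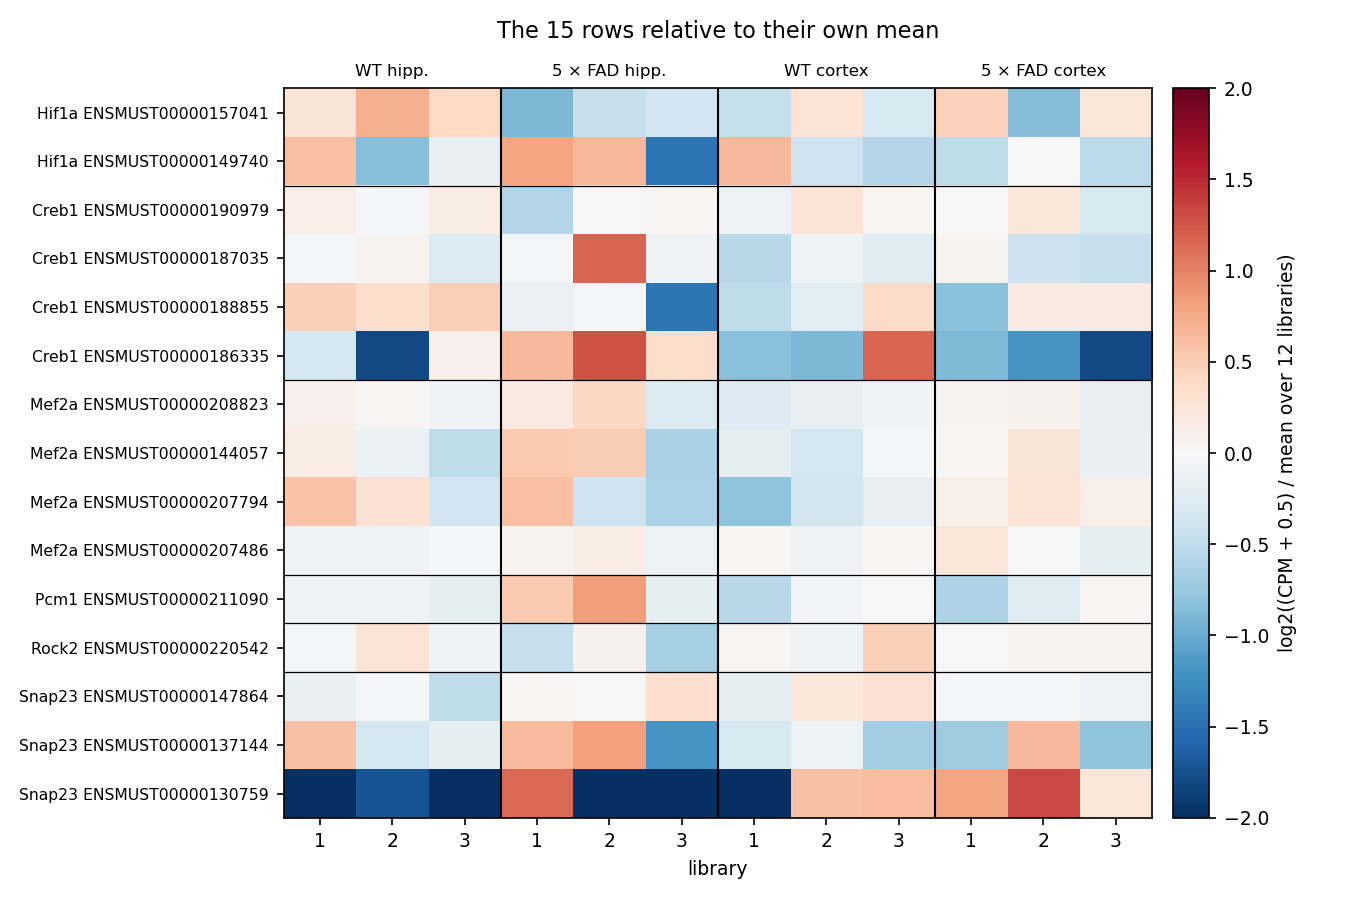
Each line is 1 of the 15 rows and each column 1 library, and colour gives log2 of CPM plus 0.5 over the row's own mean across the 12 libraries, cut at 2 in both directions. In hippocampus the first Hif1a line is below its mean in all 3 libraries of 5 × FAD, and the Pcm1 line is above it in 5 × FAD 1 and 2 only; the line of Snap23 ENSMUST00000130759 has 0 or 1 counts in 6 libraries.

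In the cortex, too, no member was called between genotypes. None of the 6 sums passed edgeR's quasi-likelihood test after Benjamini-Hochberg adjustment (0.0175% of 11409 sums did), none had an unadjusted p under 0.05 (6.68% of all sums), and none passed with DESeq2. The groups overlapped for all 6, while they did not for 13% of all sums. The log2 fold changes lay between -0.13 and 0.21, with a median of -0.06 against 0.00 over all sums. Mef2a had the highest, 0.21 (standard error 0.14, 95% interval -0.12 to 0.53). Its rows summed to 710, 816 and 698 counts in WT cortex and to 965, 844 and 825 in 5 × FAD cortex, and the value was 0.28 without 5 × FAD 3 and 0.05 with the term for Y-linked transcripts.

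The other genes had smaller fold changes in the cortex than Mef2a. Hif1a summed to 65, 65 and 36 counts in WT against 68, 38 and 59 in 5 × FAD, which gave a log2 fold change of -0.04 (95% interval -0.65 to 0.57), -0.07 without 5 × FAD 3 and 0.02 with the term for Y-linked transcripts. Creb1 summed to 140, 204 and 153 counts in WT against 175, 154 and 141 in 5 × FAD, which gave a log2 fold change of -0.11 (95% interval -0.56 to 0.34), -0.01 without 5 × FAD 3 and -0.33 with the same term. For both genes the 3 libraries of each genotype were interleaved.

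Pcm1 had 147, 228 and 181 counts in WT cortex against 150, 160 and 232 in 5 × FAD cortex, and its log2 fold change was -0.08 (95% interval -0.64 to 0.49). Here 5 × FAD 3 was the highest of the 6 libraries in CPM, whereas in hippocampus it was about level with the lowest WT library. Without 5 × FAD 3 the cortex value was -0.25, and with the term for Y-linked transcripts it was 0.22. Rock2 had 349, 349 and 400 counts in WT against 366, 314 and 368 in 5 × FAD, with a log2 fold change of -0.13 (95% interval -0.57 to 0.31), -0.14 without 5 × FAD 3 and -0.12 with that term. Snap23 had 60, 100 and 76 counts in WT against 82, 91 and 71 in 5 × FAD, with a log2 fold change of 0.03 (95% interval -0.59 to 0.64), 0.14 without 5 × FAD 3 and -0.25 with that term.

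Of 13 rows that passed the filter in cortex, none passed edgeR's quasi-likelihood test after Benjamini-Hochberg adjustment, where 0.0545% of 21999 rows did, and none passed with DESeq2. One had an unadjusted p under 0.05, where 5.34% of all rows did, and it was also the 1 row of the 13 whose groups did not overlap (12.1% of all rows, 6.18% higher in 5 × FAD). This was Mef2a row ENSMUST00000207794 (chr7:67233833-67268714), which runs through 7 exons into the 3′UTR and is the row that holds the 3′UTR seed match. Of its 2766 bases, 48.8% are coding sequence, 1035 bases lie in the 3′UTR and 13.7% lie in no coding exon. Reads of the shared bases cannot be told apart from those of the coding mRNA. The row had 48, 73 and 64 counts in WT cortex against 100, 92 and 97 in 5 × FAD cortex. All 3 libraries of 5 × FAD, the third included, were above all 3 of WT, at 1.47, 1.65 and 1.46 times the WT mean. Its log2 fold change was 0.61 (standard error 0.23, 95% interval 0.07 to 1.16, unadjusted p = 0.0331, adjusted p = 0.912 with edgeR's quasi-likelihood test and Benjamini-Hochberg adjustment). It was 0.64 without 5 × FAD 3 and 0.55 with the term for Y-linked transcripts. Oligodendrocyte markers (4 of 5 genes with a row, none at 0 in all libraries) were also apart in the cortex, at 240, 227 and 271 CPM in 5 × FAD 1, 2 and 3 and 143 to 196 CPM in WT, and their part in this value was not tested.

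The same Mef2a row did not show this in the hippocampus. There it had 142, 117 and 68 counts in WT against 126, 66 and 53 in 5 × FAD, which gave a log2 fold change of -0.24 (standard error 0.43) with overlapping groups. It was -0.01 without 5 × FAD 3, -0.72 without 5 × FAD 1 and -0.86 with the term for Y-linked transcripts. The difference between the regions was -0.87 (standard error 0.50, unadjusted p = 0.111) in the interaction test. The row shares 302 bases with a non-coding transcript of Lysmd4 on the opposite strand, which had 0 to 5 counts in a library.

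**Figure D5:**
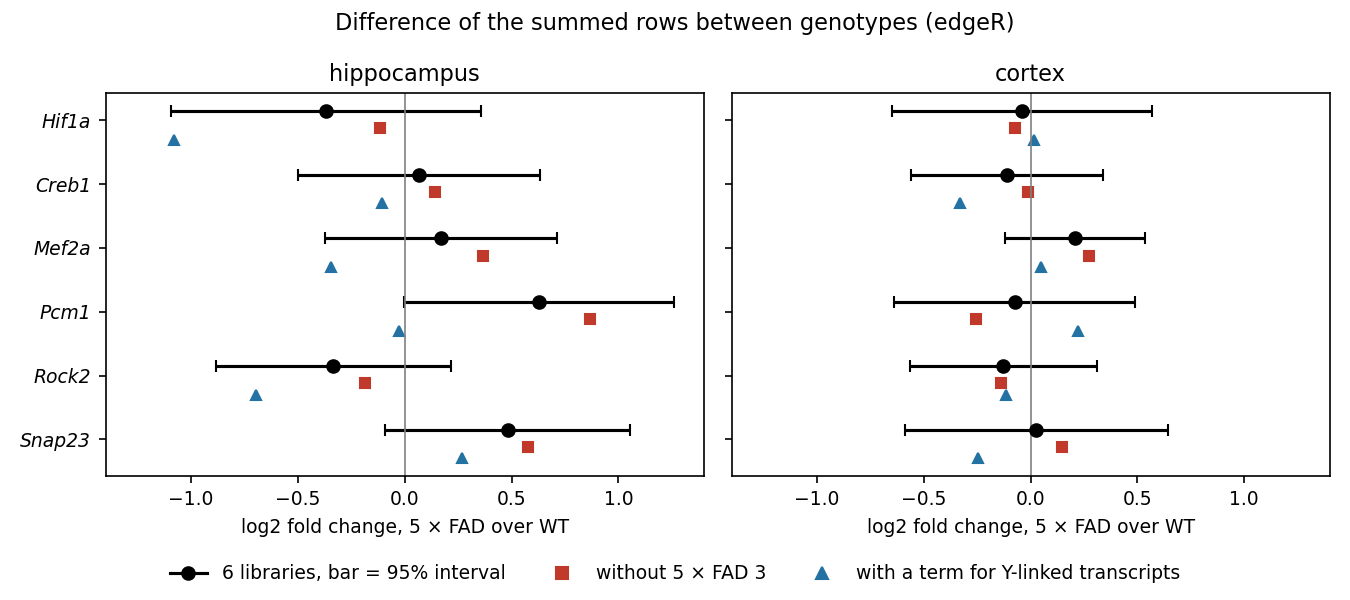
Black points are the log2 fold change of 5 × FAD over WT (x axis) of each gene sum with its 95% interval, in hippocampus (left) and cortex (right); red squares are the value without 5 × FAD 3 and blue triangles the value with a term for Y-linked transcripts. All black intervals include 0, and in hippocampus every blue triangle lies to the left of its black point.

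An interaction over all 12 libraries asks if the genotype difference itself depends on the region. This fit and the comparison of regions treat the 12 libraries as independent, although the regions share mice, and a fit with a term for each number and genotype is given among the alternatives. None of the 6 sums passed edgeR's quasi-likelihood test after Benjamini-Hochberg adjustment, and 0% of all 12109 sums did. None had an unadjusted p under 0.05, where 7% of all sums did, and none passed with DESeq2. Pcm1 had the largest difference, 0.67 higher in hippocampus on the log2 scale (standard error 0.38, 95% interval -0.15 to 1.5, adjusted p = 0.739 in the same edgeR test). Without 5 × FAD hippocampus 3 it was 0.94. Of 13 rows tested, none passed (0.00812% of 24632 rows did) and 1 had an unadjusted p under 0.05, where 6.89% of all rows did. This was Hif1a row ENSMUST00000157041, at -1.29 (standard error 0.52, unadjusted p = 0.0319, adjusted p = 0.681 with edgeR's quasi-likelihood test and Benjamini-Hochberg adjustment). In the cortex it had 23, 44 and 22 counts in WT against 49, 15 and 41 in 5 × FAD, which overlapped. With a term for each number and genotype, 0 of the 13 rows had an unadjusted p under 0.05 in the same edgeR test.

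Hippocampus was compared with cortex over both genotypes. Of the 6 sums none passed edgeR's quasi-likelihood test after Benjamini-Hochberg adjustment, where 6.82% of 12109 sums did, and none had an unadjusted p under 0.05, where 19.6% did. None passed with DESeq2. Libraries of the regions overlapped for all 6, while they did not for 4.74% of all sums. Pcm1 was nearest, 0.38 higher in hippocampus on the log2 scale (standard error 0.19, 95% interval -0.03 to 0.80, adjusted p = 0.295 in the same edgeR test). Hif1a, Creb1 and Mef2a were at 0.19, 0.17 and 0.16, and Rock2 and Snap23 at -0.22 and -0.11. Of 5 region markers tested in the same fit, 3 passed. Zbtb20, a hippocampal transcription factor, was 1.63 higher in hippocampus, and Rorb, a marker of cortical layer neurons, was lower there by -1.14 on the log2 scale (adjusted p = 0.00475 with edgeR's quasi-likelihood test). Lamp5 was at -1.04 (adjusted p = 0.0171 in the same edgeR test), while Tbr1 at -0.71 and Cux2 at -0.43 did not pass. Of the 13 member rows tested none passed (2.55% of 24632 rows did), the regions did not overlap for 0 (3% of all rows), and 1 had an unadjusted p under 0.05 (14.3% of all rows), the Snap23 row ENSMUST00000130759 that was at 0 or 1 in 5 of 6 hippocampus libraries.

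In the hippocampus both 5 × FAD 1 and 5 × FAD 2 were above 5 × FAD 3 for 5 of the 6 genes, where this held for 35.8% of 11345 sums and the reverse for 36.7%. 5 × FAD 3 was below the WT range for 5 genes (33.7% of all sums) and above it for Snap23 (29.5% of all sums). Pcm1 was at the edge, at 44.99 CPM against a lowest WT value of 45.05 CPM. With TMM factors of the gene sums instead, it was above the lowest WT value, at 44.96 against 44.59 CPM. The summed level of all members was 464, 546 and 322 CPM in 5 × FAD hippocampus 1, 2 and 3 and 379 to 442 CPM in WT. In the cortex both 5 × FAD 1 and 2 were above 5 × FAD 3 for 3 of the 6 genes (35.2% of all sums), and 5 × FAD 3 was within the WT range for 4. As a description, the median log2 fold change of the 6 genes in hippocampus was 0.25 without 5 × FAD 3 and -0.22 with the term for Y-linked transcripts.

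Partners of the members were looked up by role in a list of 44 genes, of which 32 had a non-coding row and 31 passed the filter. None passed edgeR's quasi-likelihood test after Benjamini-Hochberg adjustment between genotypes in either region or in the interaction, and the counts at an unadjusted p under 0.05 follow for each region. The median log2 fold change of the partners was 0.14 in hippocampus against 0.03 over all sums and -0.01 in cortex. At an unadjusted p under 0.05, 3 of 31 were higher and 1 was lower in 5 × FAD hippocampus, where 8.68% of all sums passed, and 1 of 31 was lower in 5 × FAD cortex, where 6.68% did. None of these passed adjustment, and the counts are no result about the list. The one lower in hippocampus was Crem, a relative of CREB that also yields short repressors of cAMP responses. It had 56, 65 and 53 counts in WT against 13, 23 and 18 in 5 × FAD, with the third library at the level of the others, and its log2 fold change was -1.51 (standard error 0.29, adjusted p = 0.388 with edgeR's quasi-likelihood test and Benjamini-Hochberg adjustment). It was -1.53 without 5 × FAD 3 and -1.47 with the term for Y-linked transcripts. In cortex Crem had 12, 20 and 10 counts in WT against 23, 36 and 10 in 5 × FAD, which overlapped. The cortex log2 fold change was 0.74 (standard error 0.54), 1.11 without 5 × FAD 3 and -0.56 with the term. The interaction was -2.27 (standard error 0.62, adjusted p = 0.647 in the same edgeR test).

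Of 5 PCM1 partners tested, 2 were among the higher ones. The others had log2 fold changes of 0.03 (Bbs4), -0.02 (Cep131) and 0.31 (Ssx2ip) in hippocampus. Cep290, a protein of centriolar satellites and the base of the cilium, had 56, 22 and 46 counts in WT hippocampus against 69, 124 and 98 in 5 × FAD hippocampus, which gave a log2 fold change of 1.39 (standard error 0.39), with 1.36 without 5 × FAD 3 and 1.44 with the term for Y-linked transcripts. Cep72, a satellite protein bound by PCM1, had 32, 15 and 19 counts in WT against 41, 59 and 29 in 5 × FAD, which gave a log2 fold change of 1.13 (standard error 0.40), with 1.34 without 5 × FAD 3 and 0.60 with the term. For neither did the groups overlap in CPM, where this held for 3 partners higher and 2 lower of 31, and for 16.4% of all sums. Adjusted p-values of Cep290 and Cep72 were 0.526 and 0.532 in edgeR's quasi-likelihood test. The third was Crtc3, a coactivator of CREB, at 0.46 (standard error 0.17; 0.49 and 0.40 in those fits), and the one in cortex was Crtc1, a neuronal coactivator of CREB, at -0.81 (standard error 0.32; -0.95 and -0.58 in those fits). In cortex Cep290 was at -0.22 (-0.11 and -0.48 in those fits), Cep72 at 0.15 (-0.0012 and 0.40) and Crtc3 at 0.01 (-0.05 and 0.12). Crtc1 was at -0.11 in hippocampus (0.10 and -0.66). The interaction of Cep290 was 1.59 (standard error 0.47, adjusted p = 0.648 in edgeR's quasi-likelihood test).

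Between regions, 2 of the 31 partners passed edgeR's quasi-likelihood test after Benjamini-Hochberg adjustment, a share near the 6.82% of all sums. Hif1an, the hydroxylase that blocks the coactivator contact of HIF-1 alpha, was 1.18 higher in hippocampus on the log2 scale (standard error 0.30, adjusted p = 0.0381 in edgeR's test). It no longer passed without 5 × FAD cortex 3 (1.08, adjusted p = 0.0886 in edgeR's test) or with a term for each number and genotype (1.17, adjusted p = 0.0566 in edgeR's test). Mef2c, a MEF2 factor of cortical excitatory neurons, was lower there by -1.11 (standard error 0.20, adjusted p = 0.00658 in edgeR's test). Mef2a and Hif1a themselves, at 0.16 and 0.19, did not pass.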

How the data were processed

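RNA sequencing counts of 12 libraries were used, with groups and replicate numbers from the labels. The authors deposited whole-number counts per transcript, not normalized, and all 12 columns were used. Trimmomatic 0.36 is named in the submitters' processing notes. The labels describe an rRNA-depleted library and the paper adds RNase R, which digests linear RNA; whether that step applied to these counts is not stated. The paper names Burrows-Wheeler alignment for its circular RNA calls only. For the transcript counts used here, the aligner, the counting program, its strand setting and the genome build are not given in the sources used here, so how counts were divided among rows that share exons is unknown. Identifiers were matched to GENCODE vM21 on GRCm38 (45372 of 48033 rows matched, 2436 are assembled transcripts, 225 were not found). Rows were also summed per gene.

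Testing used R 4.3.3 and edgeR 4.0.16 (filterByExpr, TMM, glmQLFit, glmQLFTest) with Benjamini-Hochberg adjustment over all rows or sums that passed the filter, at 0.05. Each region was fitted on its 6 libraries, and the interaction and the region difference on all 12. Standard errors are the log2 fold change over the square root of F. CPM used TMM sizes of the rows. Alternatives were DESeq2 1.42.0, its size factors in edgeR, library size only, no filter, at least 10 counts in every library, a block, 1 fit of all libraries, a term for Y-linked transcripts, and leaving out each library. The block was the replicate number in fits of 1 region, and the number together with genotype in fits of all 12 libraries. The functions were tested on simulated counts.

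The members and gene lists were chosen with earlier results of these data known. Named are all 7 genes, the row with most counts of each gene, the only row of a gene, rows with an unadjusted p under 0.05, the row whose share of its gene varied most, and the gene most alike to each member. Creb1 rows ENSMUST00000187035, ENSMUST00000188855 and ENSMUST00000186335 and the partner genes given with values were picked out after their values were seen. By the stated make-up, libraries of a group are separate mice, although the Y-linked and Xist counts do not bear out its sexes. The p-values set a difference against the spread between these libraries, and in the fits of all 12 libraries these come from 6 mice. Replicates were compared by a chi-square statistic per degree of freedom over rows with enough counts, which was 20.8 to 33.0 within groups, where 1 is counting noise. The 95% intervals come from the edgeR fits and include the spread between libraries, while the floors of 3 counts cover counting error only.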

Additional observations from a re-analysis of the deposited data

Results flagged for a closer look

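Creb1 row ENSMUST00000186335, a processed transcript, was above the WT mean in every 5 × FAD hippocampus library, at 2.99, 4.99 and 2.31 times it, and below it in every 5 × FAD cortex library, at 0.311, 0.188 and 0 times it. Counts were 4, 0 and 6 in WT hippocampus and 9, 16 and 7 in 5 × FAD hippocampus, and 2, 2 and 12 in WT cortex and 2, 1 and 0 in 5 × FAD cortex. The row did not pass the filter on low counts, so the difference between the regions was not tested, and the WT cortex mean rests on 1 library.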

How the results depend on the processing

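None of the member rows or sums passed adjustment in any of the 8 comparisons under any of the 132 alternatives run, and the lowest adjusted p of a named result was 0.063. Of 664 alternative values of 42 single results, 28 had the opposite sign. With the term for Y-linked transcripts, hippocampus values became -0.11 for Creb1, -0.34 for Mef2a and -0.027 for Pcm1, and -1.62 for Hif1a row ENSMUST00000149740 and -0.29 for Mef2a row ENSMUST00000208823. Cortex values became 0.017 for Hif1a, -0.25 for Snap23, 0.22 for Pcm1 and -0.0062 for Mef2a row ENSMUST00000208823. Leaving out 1 library at a time gave, in hippocampus, -0.21 to 0.22 for Creb1 (lowest without 5 × FAD 2) and -0.031 to 0.30 for Mef2a row ENSMUST00000208823 (lowest without 5 × FAD 2). In cortex it gave -0.19 to 0.11 for Hif1a, -0.15 to 0.14 for Snap23, -0.24 to 0.071 for Rock2, -0.25 to 0.074 for Pcm1, -0.60 to 0.17 for Hif1a row ENSMUST00000149740, -0.082 to 0.51 for Hif1a row ENSMUST00000157041 and -0.24 to 0.034 for Creb1 row ENSMUST00000190979. In the interaction it gave -0.19 to 0.16 for Mef2a and -0.13 to 0.32 for Creb1. The sign changed without WT 1 and 2 or 5 × FAD 2 (Hif1a), WT 1 or 5 × FAD 2 (Snap23), WT 3 (Rock2) and WT 3 or 5 × FAD 1 (Pcm1) in cortex. In the interaction it changed without hippocampus WT 1 or 5 × FAD 3 or cortex WT 1 or 5 × FAD 2 (Mef2a) and without hippocampus 5 × FAD 2 (Creb1). The cause was not tested.

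With the replicate number as a block, Pcm1 in hippocampus was 0.57. No call of a member changed with this block or, over all 12 libraries, with a term for each number and genotype. Same-numbered hippocampus and cortex libraries correlated at 0.01 to 0.13 and differently numbered ones at -0.11 to 0.06. For WT with 5 × FAD libraries these ranges were -0.04 to 0.01 and -0.02 to 0.03. The main fits did not take the numbers as pairs, but these overlapping ranges cannot settle whether a number marks the same mouse. With the term for each number and genotype, calls between regions over all features fell from 628 to 205 rows and from 826 to 479 sums. Over all features the number of calls depended on the tool: 4 rows with edgeR and 127 with DESeq2 in hippocampus, 12 and 102 in cortex, 2 and 91 in the interaction, and 628 and 1378 between regions. For sums it was 6 and 82, 2 and 53, 0 and 20, and 826 and 1202 in the same order. Rows of under about 20 counts in a library limit what differences could be seen. These include the smaller rows of Snap23 and Creb1, Mef2a row ENSMUST00000207486 (6 to 9 counts) and, in some libraries, both rows of Hif1a.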

Other observations

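Over the 12 libraries, Pearson's r between the log2 CPM sums of pairs of members ran from -0.34 (Hif1a with Snap23) to 0.62 (Mef2a with Pcm1), as a description over libraries that share depth, region and genotype. Among 12108 other sums, the one most like Hif1a was Zmym4 (r = 0.94), the one most like Creb1 was Prex2 (0.83) and the one most like Snap23 was Cdkn2aip (0.86). For Mef2a, Pcm1 and Rock2 the most alike were unannotated assembled loci (0.94, 0.93 and 0.94).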
